A study of Mus with 50 samples.

Results

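The 32 genes described here make fatty acids, lengthen and desaturate them, join them into triglyceride and keep that triglyceride in lipid droplets. They were listed by symbol, and each was read from the probe set that carried its symbol alone and had the highest median signal over livers. All 32 were found among the 22180 named genes of the array. For 31 of them there was 1 such probe set, and Lpin2 had 2, with r = 0.745 between them over the livers. By role, 8 are counted with de novo synthesis, the path from sugar and acetate to palmitate (Acly, Acss2, Acaca, Acacb, Fasn, Me1, Pklr, Thrsp). Another 6 lengthen or desaturate fatty acids (Elovl2, Elovl5, Elovl6, Scd1, Fads1, Fads2). These 14 are called the synthesis arm. Another 14 form the storage arm, with 7 genes of triglyceride synthesis (Gpam, Agpat2, Lpin1, Lpin2, Mogat1, Dgat1, Dgat2) and 7 of droplet coats and lipases (Plin2, Plin4, Plin5, Cidea, Cidec, Pnpla2, Pnpla3). The regulators Srebf1, Mlxipl and Pparg and the fatty acid transporter Cd36 stand in neither arm.

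Livers from 50 female mice were measured, each on an array of its own, and a mouse is identified below by its animal number. All were offspring of a C57 and FVB backcross, carried MMTV-Neu and were labelled as having breast cancer, so no liver without the transgene served as a control. In this transgene a viral promoter active in mammary tissue drives the Neu oncogene, and the liver is not its target. Livers were picked from mice at both extremes of an ageing grade, but the labels do not give the grade of a mouse, its age or its feeding state, so all 50 form 1 group and every result is a spread or a covariation over livers. The protocol speaks of RNA from purified cells, whereas the tissue label is liver.

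A liver cell makes fatty acids from citrate when sugar and insulin are plentiful. Insulin acts through SREBP-1c, encoded by Srebf1, and sugar through ChREBP, encoded by Mlxipl, and both switch on the enzymes of the synthesis arm. Fatty acids made in the cell or taken up from blood are joined to glycerol in steps that end with the DGAT enzymes. The product is kept in droplets coated by perilipins and is broken down by the lipase ATGL, encoded by Pnpla2. PPAR gamma, encoded by Pparg, is known to drive droplet genes such as Cidec in fatty livers of mice.

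Values are log2 signals. Array medians lay between 3.27 and 3.34, and with 50 arrays their number sets the precision. Tests across genes used the 11090 genes whose median signal reached 3.61, the median over all named genes; 30 of the 32 members did, and Mogat1 and Cidea did not. The livers of animals 64, 84, 87 and 235 stand apart, with median correlations to the other livers of 0.794, 0.903, 0.932 and 0.857, whereas the next lowest liver had 0.944. The tests and the correlations that rest on these 4 livers are given without them too. The hepatocyte markers averaged 9.74 in animal 64 and 10.13 in animal 235, against a median of 11.35 over livers, and macrophage markers were highest in animal 235 at 10.00. None of the 6 measured adipocyte markers reached the level filter, and their mean stayed between 2.68 and 3.39 in every liver. The milk protein genes were at a mean of 9.11 in animal 161 and at most 3.08 elsewhere, and pancreatic enzyme genes were high in animals 96 and 149. In whole-tissue RNA, fewer cells of a type and less RNA per cell cannot be told apart.

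Lipogenesis and droplet genes were variable from mouse to mouse. All 30 members above the level filter had an SD over livers greater than 0.28, the median of the 11090 genes, and 11 lay above 0.67, the 95th percentile. The median SD over the 32 members was 0.61, and it was 0.46 without the 4 livers that stand apart. The SD of all genes was not taken without those livers. Pnpla3, a lipase-like protein of droplets, had the largest SD, at 1.48. Its signal ran from 3.56 through a median of 5.57 to 8.43, and the middle 80% of livers still spanned 4.05. Thrsp, a protein that promotes lipogenesis, came next with an SD of 1.17. Elovl6, Lpin1, Scd1, Me1 and Fasn followed with SDs of 0.92, 0.91, 0.90, 0.88 and 0.87. The median SD was 0.74 in the synthesis arm and 0.48 in the storage arm, and without the 4 livers it was 0.56 and 0.37. The storage arm includes Mogat1 and Cidea, which lie below the level filter and had SDs of 0.21 and 0.14.

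**Figure D1:**
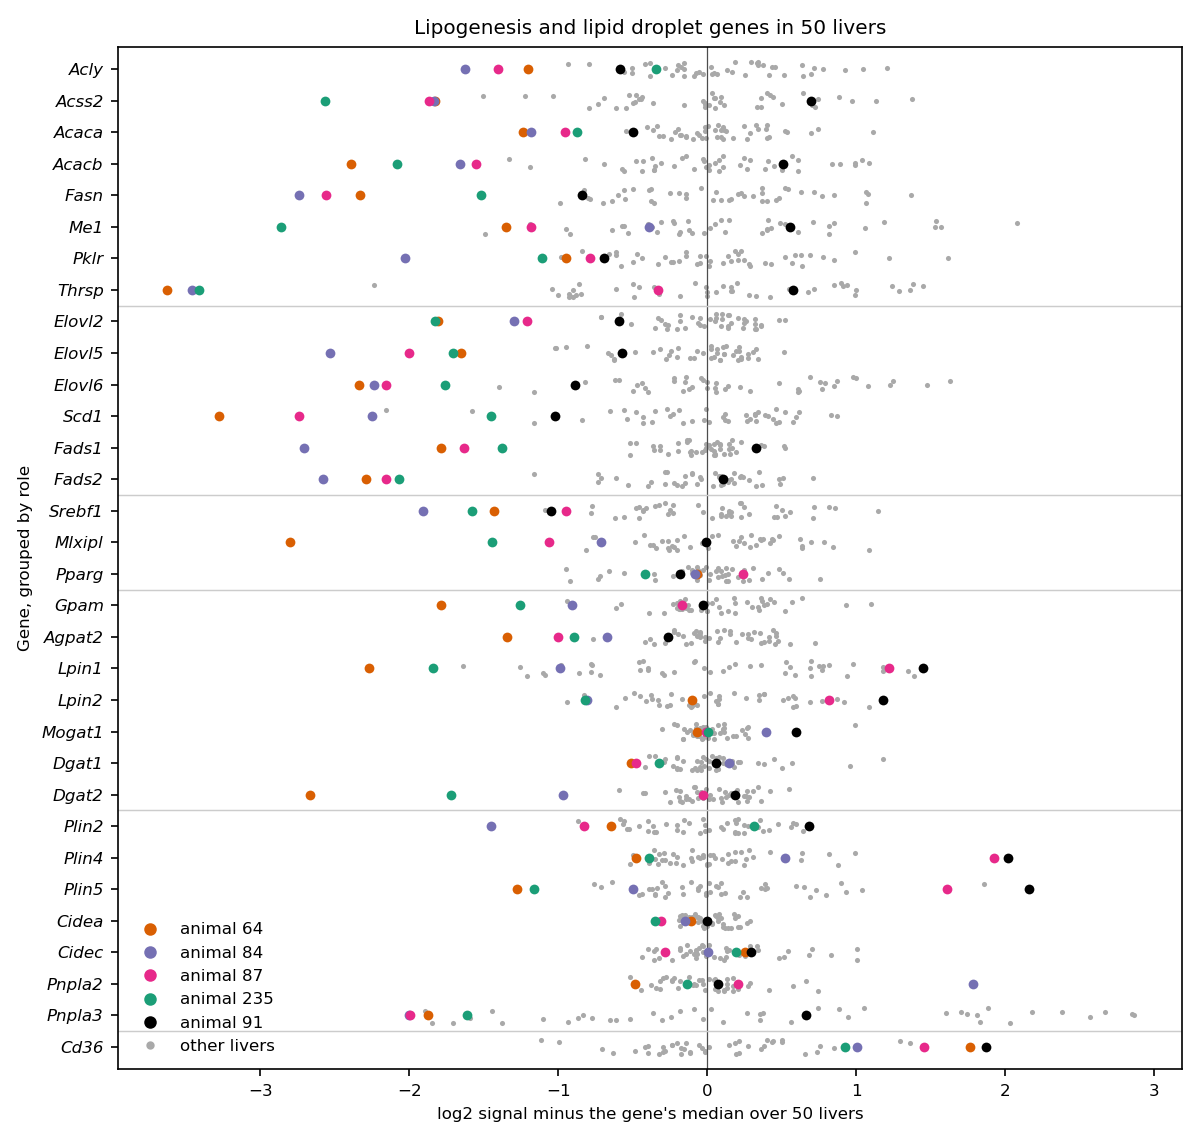
Log2 signal of each member in each of 50 livers, as the difference from that gene's median (horizontal axis, log2), with genes grouped by role on the vertical axis and 1 point per liver. Coloured points are the 4 livers that stand apart and black points are animal 91. Most coloured points lie at the low end for the 14 genes of the synthesis arm, with animal 235 for Acly, animal 84 for Me1 and animal 87 for Thrsp nearer the median, and animal 91 is the highest liver for Lpin1, Lpin2, Plin2, Plin4, Plin5 and Cd36.

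Among the genes of de novo synthesis, Fasn, the fatty acid synthase, had a lowest signal of 7.19 (animal 84), a median of 9.93 and a highest signal of 11.30 (animal 187). Acaca and Acacb encode the acetyl-CoA carboxylases that make malonyl-CoA. Acaca ran from 6.39 through 7.62 to 8.74, and Acacb from 4.19 through 6.58 to 7.67. Acly, which splits citrate into acetyl-CoA, ran from 7.57 through 9.19 to 10.40. Acss2, which makes acetyl-CoA from acetate, ran from 6.09 through 8.66 to 10.03. In these 5 genes the lowest liver was always 1 of the 4 that stand apart, and the highest was animal 187 or animal 200.

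Me1, the malic enzyme that supplies NADPH, ran from 4.60 in animal 235 through 7.46 to 9.54 in animal 301. Pklr, the liver pyruvate kinase, ran from 6.36 in animal 84 through 8.39 to 10.01 in animal 187. Thrsp ran from 5.34 in animal 64 through 8.97 to 10.42 in animal 301. Thrsp was not low in all 4 livers that stand apart. It read 5.34, 5.51 and 5.56 in animals 64, 84 and 235, but 8.64 in animal 87, close to its median. Animal 301 held the highest signal of both Me1 and Thrsp, and animal 101 had 10.35 for Thrsp.

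The middle 80% of livers spanned a median of 1.21 for the elongases and desaturases and 1.82 for the de novo genes. Elovl6, which lengthens palmitate to stearate, ran from 6.06 through 8.40 to 10.03. Elovl5 and Elovl2 lengthen polyunsaturated fatty acids. Elovl5 ran from 8.44 through 10.97 to 11.49 and Elovl2 from 8.75 through 10.58 to 11.10. The polyunsaturated desaturases Fads1 and Fads2 were both lowest in animal 84; Fads1 ran from 8.06 through 10.76 to 11.29, and Fads2 from 8.42 to 11.71. For Fads1 the SD fell from 0.58 to 0.24 when the 4 livers were left out, and for Fads2 from 0.71 to 0.37. Outside those 4 livers no signal of Fads1 lay below 10.25.

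Scd1, the stearoyl-CoA desaturase that makes oleate, was split into 2 sets of livers by a mixture of normals whose means lay 2.25 log2 apart. In 6 livers its signal lay between 8.33 and 10.16, and in the other 44 between 10.45 and 12.48. The facing edges of the sets, at 10.16 and 10.45, lay close together. The low set held the 4 livers that stand apart together with animals 170 and 257. Within the 44 livers Scd1 went with Fasn at r = 0.682 (rho 0.647), and within the 6 at r = 0.610. A pooled r is not given for it. No other member had means at least 4 SD apart with at least 5 livers in the smaller set. For Elovl2, Elovl5, Fads1 and Fads2 the smaller set held 4 livers.

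The livers that stand apart were low in the synthesis arm as a whole. Of its 14 genes, 14 were lowest in 1 of them, as were 8 of the 14 genes of the storage arm. In animal 64 all 14 synthesis genes were among their 5 lowest livers, with a median difference of -1.82 from the gene's median, and animals 84, 87 and 235 had 13, 12 and 12 such genes. In animal 87 the triglyceride synthesis genes went both ways. Of these 7 genes, 2 were among their 5 lowest livers and 2 among their 5 highest, with a median difference of -0.02. The synthesis arm had a median difference of -1.59 there. Animals 64, 84 and 235 were low in both arms. Their median differences in the synthesis and storage arms were -1.82 and -0.58, -2.14 and -0.59, and -1.73 and -0.60. In animal 87 the storage arm was at -0.09. The hepatocyte marker mean was low in animals 64 and 235 and near its median in animals 84 and 87, at 11.20 and 11.26, and its part in these values was not tested.

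**Figure D2:**
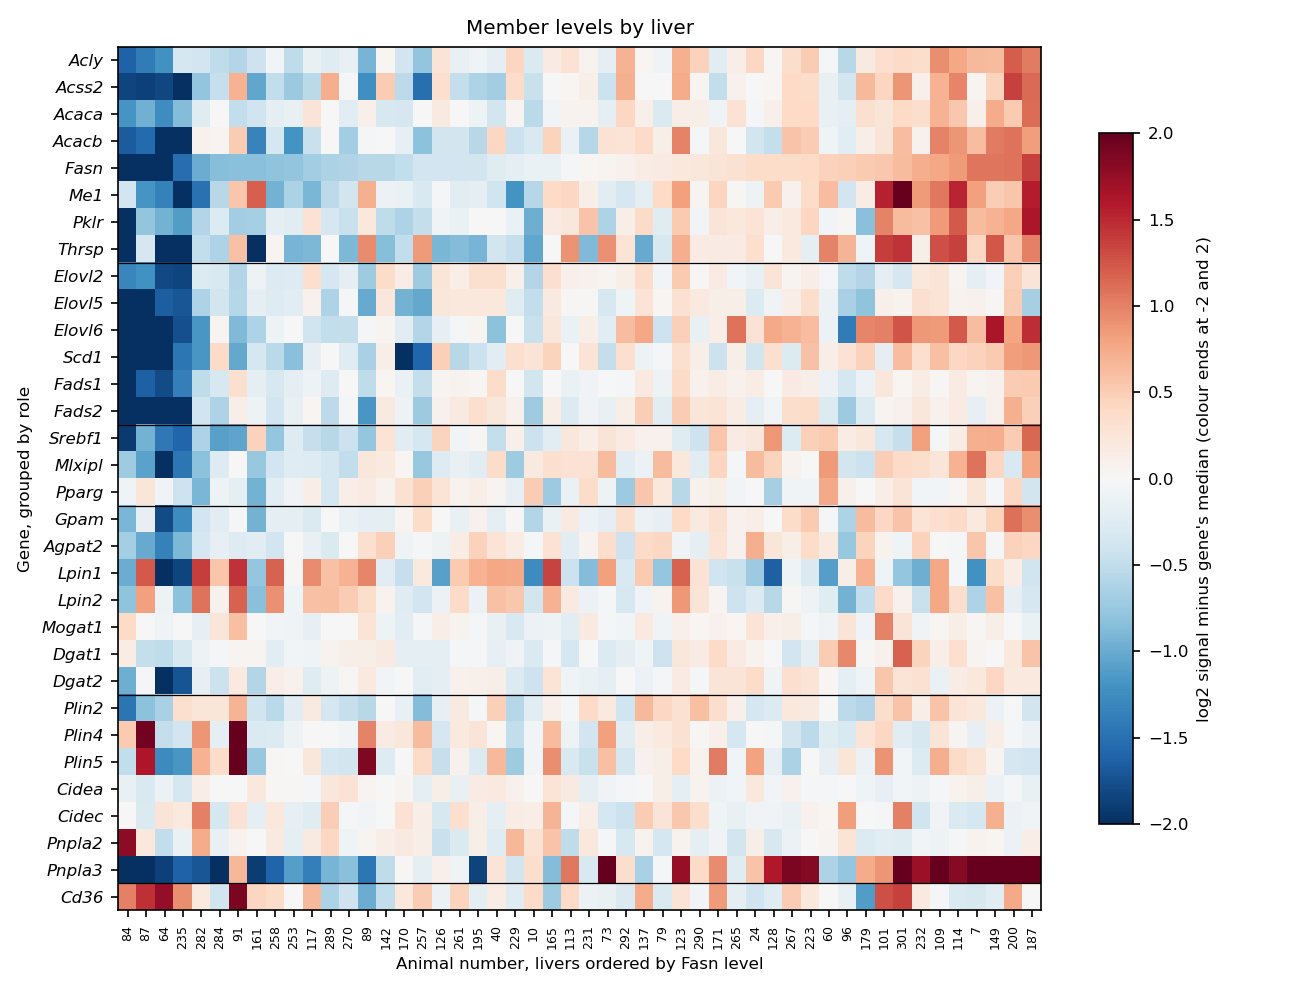
Members (rows, grouped by role) in the 50 livers (columns, ordered from the lowest to the highest Fasn signal), coloured by the log2 signal minus the gene's median, with the colour scale ending at -2 and 2. Animals 84, 87, 64 and 235 fill the left end with low synthesis genes, Pnpla3 changes from low to high along the Fasn order, and Lpin1, Plin4 and Plin5 show no such order.

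To ask which genes go with fatty acid synthesis from liver to liver, every gene was fitted on the Fasn signal with limma, and a gene was called at a Benjamini-Hochberg adjusted p under 0.05 over the genes tested. Of 11089 genes tested, 18% were called higher with Fasn and 17.1% lower. Among the 29 other members, 21 rose with Fasn and 2, Pnpla2 and Cd36, fell. The median r with Fasn was 0.722 over the members and -0.00392 over all genes. All 13 other genes of the synthesis arm rose. In the storage arm 6 of 12 rose and 1 fell, and of the regulators Srebf1 and Mlxipl rose. All genes were read from the same arrays. With each array centred on its median, 21% of genes were called higher and 13.2% lower, and the members' counts did not change. The neutrophil marker mean, with 0 of its 5 genes at the level filter, moved with Fasn at r = -0.445 (-0.411 without the 4 livers) and with Plin2 at -0.289 (-0.240). The stellate and fibroblast mean had -0.339 with Fasn (-0.161) and -0.328 with Plin2 (-0.231). The hepatocyte mean had 0.334 with Fasn (-0.348 without the 4 livers) and 0.0382 with Plin2 (-0.233). The part of these cells in the members' relations was not tested.

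Elovl6 had the clearest relation, with a slope of 0.904 ± 0.0753 (SE) log2 per log2 of Fasn (limma adjusted p = 7.15e-13, n = 50). Acly and Acaca had slopes of 0.575 ± 0.0506 and 0.441 ± 0.0395 (limma adjusted p = 2.93e-12 and 4.06e-12). Pnpla3 had the steepest slope, at 1.35 ± 0.142 (limma adjusted p = 4.44e-10), followed by Thrsp at 0.983 ± 0.126 (limma adjusted p = 5.57e-08). A slope of 1 stands for a change as large as that of Fasn. The slopes of Elovl2 and Elovl5, at 0.396 ± 0.0635 and 0.530 ± 0.0715, were lower than that of Elovl6, although the differences were not tested.

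In the 46 livers left without those that stand apart, 15 of the 29 members rose with Fasn and 0 fell, beside 3.67% and 0.758% of all genes. The 8 members that lost their call were Agpat2, Cd36, Dgat1, Elovl2, Elovl5, Fads2, Plin2 and Pnpla2. All 7 other de novo genes kept it, and of the elongases and desaturases Elovl6, Scd1 and Fads1 did. The slope of Elovl6 was then 0.831 ± 0.114, that of Pnpla3 1.89 ± 0.193 and that of Elovl5 0.206 ± 0.0891 (limma adjusted p = 0.169). Leaving out any single liver gave between 20 and 21 members that rose. Single livers changed the calls of Plin2, Pnpla2, Cd36 and Plin4, and of no other member. With ranks in place of log2 values 20 rose, beside 10.4% of all genes, and Plin2, Pnpla2 and Cd36 were not called.

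**Figure D3:**
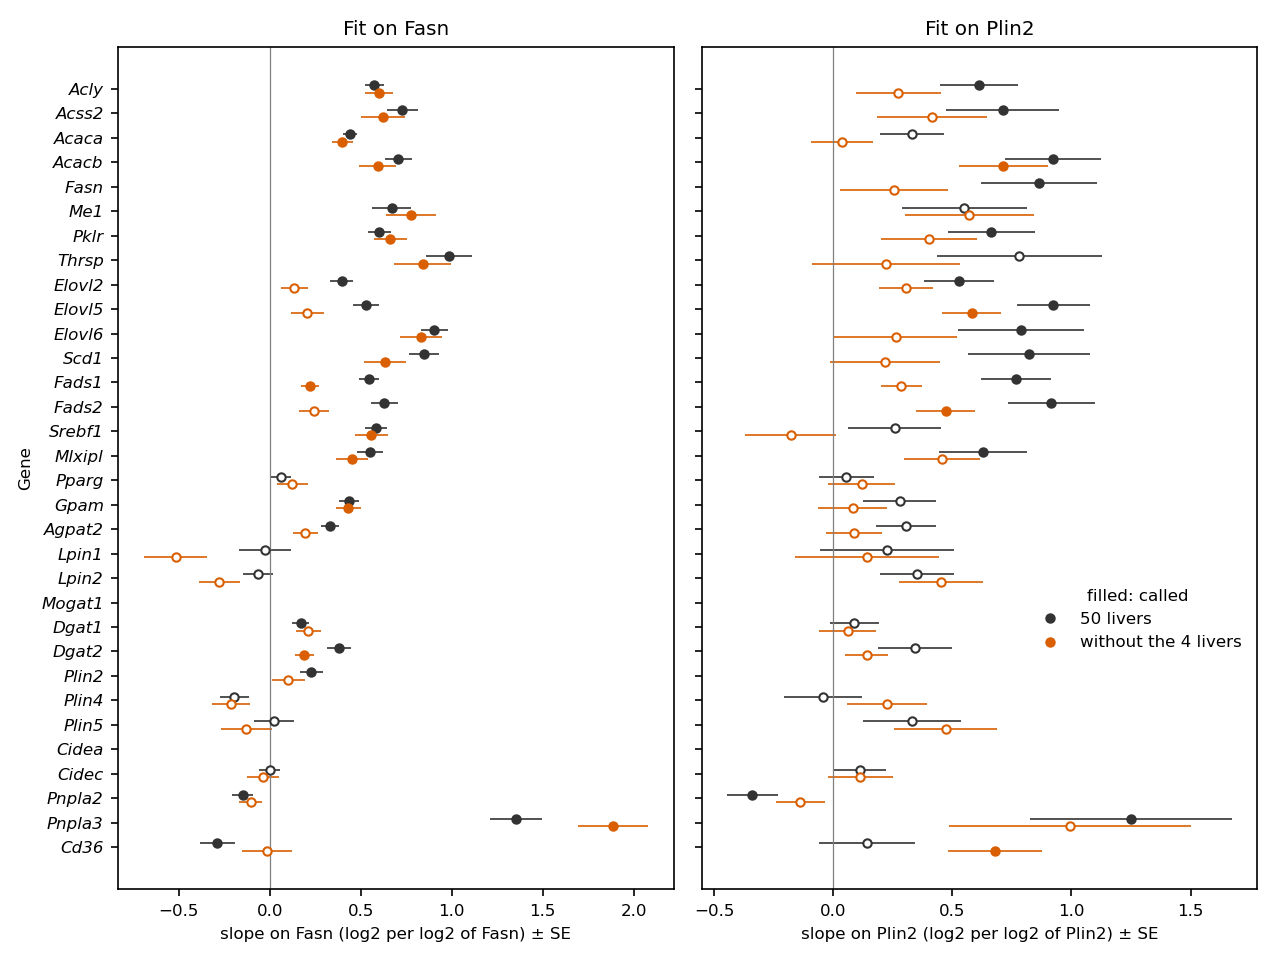
Slope of each member on the Fasn signal (left) and on the Plin2 signal (right), in log2 per log2 with the SE as a bar, over 50 livers (dark) and over the 46 livers left without animals 64, 84, 87 and 235 (orange). Filled points are called at an adjusted p under 0.05 in limma; Mogat1 and Cidea lie below the level filter and have no point. On Fasn 23 members are filled over 50 livers and 15 over 46, and on Plin2 the numbers are 14 and 4.

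Within the synthesis arm the 91 pairs of genes had a mean r of 0.720 ± 0.0598 (SE from leaving out each liver, n = 50), and all 91 were positive, from 0.474 to 0.956. The mean was 0.504 without the 4 livers, with a lowest r of -0.139, and the mean Spearman rho was 0.595. De novo genes had a mean r of 0.723 among themselves and 0.595 without the 4 livers. The elongases and desaturases had 0.798 and 0.541. Acaca was closest to Elovl6, with r = 0.899 (0.810 without the 4 livers). Fads1 and Fads2 had the highest r of any pair of members, at 0.956 (0.878 without the 4 livers). They are immediate neighbours on the chromosome, with 0 protein-coding genes between them in the RefSeq order. These r values describe livers that share arrays and were not tested.

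The regulators that answer insulin and sugar both went with Fasn. Srebf1 had a lowest signal of 5.64 in animal 84, a median of 7.55 and a highest of 8.70 in animal 187, the livers that were also lowest and highest for Fasn. Over 50 livers r was 0.797 with Fasn, and its permutation p of 1e-05 is the smallest that 100000 permutations can give (4e-05 when adjusted over 12 pairs). Spearman's rho was 0.698 (permutation p = 1e-05). Pearson's r was 0.734 without animals 235 and 84, which lie farthest from the median of Srebf1, and 0.668 without the 4 livers (permutation adjusted p = 0.00012). Within the 4 stretches of animal numbers, which hold 8, 13, 16 and 13 livers, r was 0.951, 0.784, 0.803 and 0.546. The relation was positive in every stretch.

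Mlxipl ran from 5.84 in animal 64 through a median of 8.65 to 9.73 in animal 7. With Fasn its r was 0.735 and its rho 0.667, each with a permutation p of 1e-05 (4e-05 when adjusted). Without animals 235 and 64 r was 0.672, without the 4 livers 0.602 (permutation adjusted p = 0.00012), and within stretches 0.973, 0.835, 0.667 and 0.746. Pklr is a classical ChREBP target. For Mlxipl and Pklr r was 0.602, with a permutation p of 4e-05 (0.00012 when adjusted), and rho was 0.616, with 1e-05. Pearson's r was 0.580 without the same 2 livers, 0.519 without the 4 (permutation adjusted p = 0.001) and 0.627, 0.780, 0.725 and 0.930 within stretches.

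Pnpla3 followed Srebf1, with r = 0.607 and a permutation p of 1e-05 (4e-05 when adjusted). Its rho was 0.578, with a permutation p of 2e-05. Without animals 235 and 84 r was 0.565, without the 4 livers 0.504 (permutation adjusted p = 0.00111), and within stretches 0.688, 0.623, 0.665 and 0.460. Although Pnpla3 is counted with the droplet genes, its closest member was Fasn, at r = 0.798. Its mean r with the synthesis arm was 0.643, and with the storage arm 0.134. Pnpla3 kept that closeness to Fasn without the 4 livers, at r = 0.815.

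Pparg passed the test with none of its 4 pairs. Of the partners, Mogat1 and Cidea lie below the level filter and Cidec just above it, which limits what these pairs can show. Its signal ran from 5.06 in animal 161 through 6.01 to 6.77 in animal 60. With Cidec r was -0.108 (permutation adjusted p = 0.499, rho 0.00255), and with Cidea -0.155 (permutation adjusted p = 0.483, rho -0.0869). With Cd36 and Mogat1, genes that PPAR gamma is known to raise, r was 0.120 and 0.120 (permutation adjusted p = 0.49 for both). Without animals 282 and 161, the livers farthest on Pparg, these 4 values were -0.0165, -0.0266, 0.167 and 0.0641. In the 46 livers they lay between -0.221 and 0.152. Pparg did not pass on Fasn either, with a slope of 0.0594 ± 0.0579 (limma adjusted p = 0.44).

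**Figure D4:**
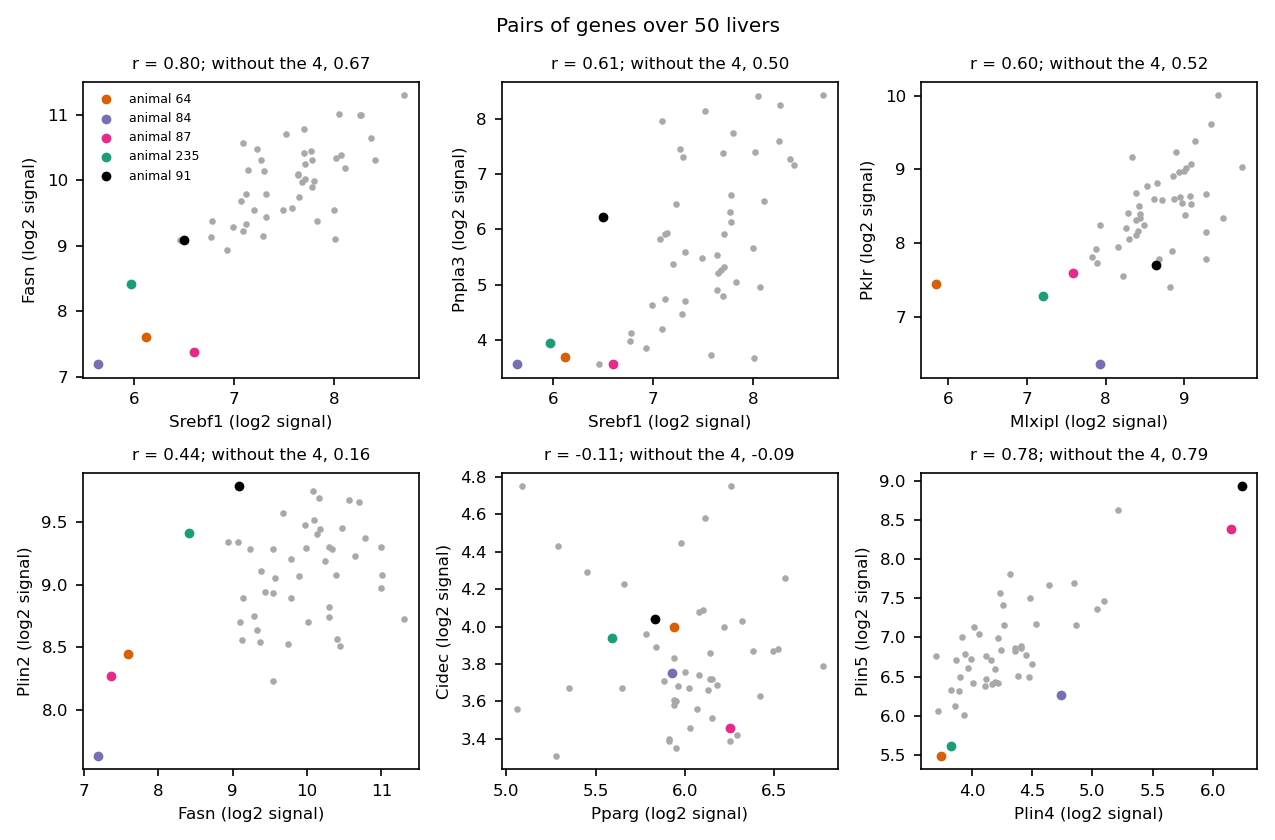
Log2 signals of 6 pairs of genes over 50 livers, 1 point per liver, with Pearson r over all livers and without the 4 livers that stand apart above each panel. Srebf1 with Fasn, Srebf1 with Pnpla3 and Mlxipl with Pklr rise along the whole range. The rise of Plin2 with Fasn is weaker without the 4 livers (0.44 against 0.16). Cidec, just above the level filter, shows no clear relation to Pparg. Plin4 and Plin5 are drawn together at the high end by animals 91 and 87.

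Triglyceride synthesis genes split into those that went with Fasn and those that did not. Gpam, the first acyltransferase of the pathway, ran from 7.74 through 9.53 to 10.63, with its lowest liver in animal 64 and its highest in animal 200. Agpat2, which adds the second fatty acid, ran from 7.98 through 9.33 to 10.05. Dgat2 and Dgat1 make the final ester bond. Dgat2 ran from 7.18 through 9.85 to 10.40, and Dgat1 from 4.68 through 5.19 to 6.37. Animal 64 was lowest for each of these 4 genes.

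All 4 rose with Fasn. Gpam had a slope of 0.433 ± 0.0543 (limma adjusted p = 3.53e-08), Agpat2 0.329 ± 0.0503 (limma adjusted p = 1.96e-06), Dgat2 0.378 ± 0.0651 (limma adjusted p = 1.43e-05) and Dgat1 0.168 ± 0.0470 (limma adjusted p = 0.00446). Over 46 livers Gpam kept its slope, at 0.432 ± 0.0676, and Dgat2 fell to 0.188 ± 0.0519 (limma adjusted p = 0.0283). Agpat2 and Dgat1 did not pass there, with limma adjusted p = 0.0858 and 0.0614. Gpam was closest to Acaca, with r = 0.827 (0.766 without the 4 livers), and Dgat2 was closest to Gpam, with r = 0.797 (0.581). Gpam, Agpat2, Dgat1, Dgat2 and Pnpla3, grouped after their values were seen, had a mean r of 0.590 with the synthesis arm (0.407 without the 4 livers).

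Lpin1 and Lpin2, the phosphatidate phosphatases of the next step, did not go with Fasn. Lpin1 ran from 6.77 in animal 64 through 9.04 to 10.49 in animal 91, and Lpin2 from 7.32 in animal 96 through 8.26 to 9.44 in animal 91. Animal 282 was second highest for both, at 10.43 and 9.35. Their slopes on Fasn were -0.0278 ± 0.144 and -0.0644 ± 0.0830 (limma adjusted p = 0.899 and 0.571). Over 46 livers they were -0.518 ± 0.175 and -0.277 ± 0.112 (limma adjusted p = 0.0716 and 0.140). The r between Lpin1 and Lpin2 was 0.732, and 0.728 without the 4 livers. The hepatocyte marker mean moved with Lpin1, at r = 0.642 (0.603 without the 4 livers), and its part was not tested.

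Mogat1, a monoacylglycerol acyltransferase, had a median of 2.82 below the level filter. It reached 3.81 in animal 101 and 3.41 in animal 91. Animal 101 was also the highest liver for Dgat2. The next liver of Mogat1 was animal 84, at 3.21, and the gene entered no fit in the filtered set.

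Among droplet genes, Plin2, the main droplet coat of liver cells, ran from 7.64 in animal 84 through 9.10 to 9.78 in animal 91. Its SD was 0.45, about that of Acaca. Animals 87 and 64 were low as well, at 8.27 and 8.45, but animal 235, the remaining liver that stands apart, was at 9.41, above the median. Plin2 is known to rise with the lipid held in a cell, although no lipid was measured in these livers.

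Plin2 rose with Fasn over all 50 livers, but the relation did not pass the test without the livers that stand apart. Pearson's r was 0.444, with a permutation p of 0.00142 (0.00341 when adjusted). Spearman's rho was 0.269, with 0.059 (0.118 when adjusted, by permutation). Without animals 87 and 84, the farthest on Fasn, r was 0.207. Without animal 84 alone it was 0.309 (permutation adjusted p = 0.0727), and without the 4 livers 0.162 (permutation adjusted p = 0.468). Within stretches r was 0.584, 0.689, -0.136 and 0.431, so the 16 livers of animals 137 to 235 did not show it. Animal 64 lies in the first stretch and animals 84 and 87 in the second, and these values were not taken without them.

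Fitted on Plin2, 5.74% of 11089 genes were called higher and 7.26% lower. Among the 29 other members 13 rose and 1, Pnpla2, fell. With each array centred the shares were 7.26% and 4.88%, with the same members' counts. The median r with Plin2 was 0.326 over the members and -0.0461 over all genes. Of the 13, 11 belong to the synthesis arm, with all 6 elongases and desaturases among them. Mlxipl and Pnpla3 were the other two. No gene of triglyceride synthesis was called, with limma adjusted p from 0.0948 (Agpat2) to 0.630 (Lpin1), although Agpat2, Dgat2 and Lpin2 passed at an unadjusted p under 0.05. Elovl5 had the clearest relation, with a slope of 0.923 ± 0.154 (limma adjusted p = 0.000139), followed by Fads1, Fads2 and Acacb at 0.767 ± 0.147, 0.915 ± 0.182 and 0.923 ± 0.202.

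Over 46 livers 4 members rose with Plin2, beside 1.62% of all genes, and 0 fell. They were Elovl5 (0.581 ± 0.123, limma adjusted p = 0.00391), Acacb (0.713 ± 0.187, limma adjusted p = 0.0257), Fads2 (0.472 ± 0.125, limma adjusted p = 0.0281) and Cd36 (0.679 ± 0.196, limma adjusted p = 0.0482). With ranks in place of log2 values the 4 called were Acacb, Elovl5, Fads1 and Fads2, beside 1.39% of all genes higher. Animal 84 alone decided much of the count, which was 4 higher and 0 lower without it, and it was 8 higher and 1 lower without animal 87. Leaving out animal 235 raised it to 18 higher and 1 lower.

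With both anchors in 1 fit, members went mainly with Fasn. At equal Plin2, 15% of 11088 genes were called higher with Fasn and 9.91% lower, and of 28 members 20 rose and 2, Cd36 and Plin4, fell. All 13 synthesis genes were among the 20. Over 46 livers 15 members rose and 0 fell at equal Plin2, beside 3.35% and 0.649% of all genes, and Elovl2, Elovl5 and Fads2 were no longer called. The call of Plin4 (limma adjusted p = 0.0498) was lost in most fits that left out 1 liver and under each of the alternatives on probe sets, centring, ranks, stretches, the level filter, the variance prior and the livers that stand apart. At equal Fasn, 0.487% of genes were called higher with Plin2 and 0.37% lower, (0.496% and 0.135% with arrays centred), and 1 of 28 members was called, Elovl5, with a slope of 0.579 ± 0.134 (limma adjusted p = 0.0222). That call was lost without animal 84, 179 or 187, and 5 members were called without animal 235 and 2 without animal 270. Without the 4 livers Elovl5, Fads2, Acacb and Cd36 were called at equal Fasn, beside 1.41% of all genes higher.

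For the arms as wholes, the mean r was 0.161 ± 0.0548 (SE from leaving out each liver) over the 91 pairs of the storage arm and 0.248 ± 0.0701 over the 196 pairs between arms. Without the 4 livers these were 0.104 and 0.108. The storage arm holds Mogat1 and Cidea, below the level filter, and Cidec, just above it. These 3 genes had a mean r of 0.0625 with all other members, and their part in the arm's mean was not tested. The scores of the arms, each the mean of standardised member values, had r = 0.614 ± 0.109, and 0.357 without the 4 livers. Among the 21 pairs of triglyceride synthesis genes the mean r was 0.244 (0.118 without the 4 livers), and among the 21 pairs of droplet and lipase genes 0.0581 (0.0797).

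**Figure D5:**
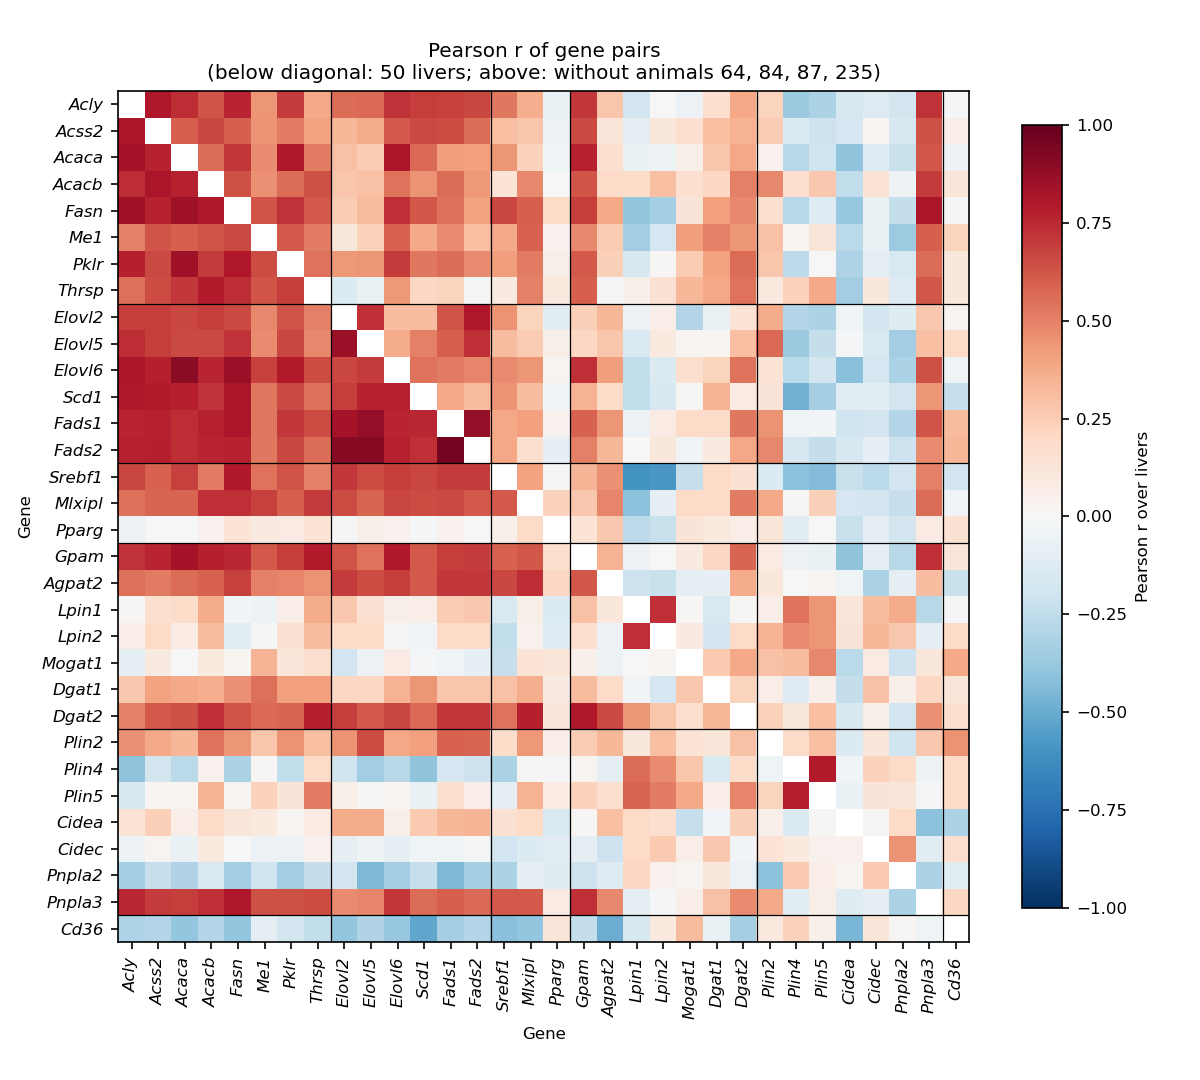
Pearson r of each pair of members over 50 livers (below the diagonal) and over 46 livers without animals 64, 84, 87 and 235 (above it), from blue (-1) to red (1), with lines between the role groups. The synthesis genes form a red block (mean r 0.720 below, 0.504 above) that extends to Srebf1, Mlxipl, Gpam and Pnpla3. Lpin1, Lpin2, Plin4 and Plin5 form a small block (mean r 0.608 below, 0.569 above). It is not set off from all others, since below the diagonal Plin5 has 0.507 with Thrsp and 0.486 with Dgat2. Values of Scd1, which fell into separate sets of livers, are drawn but not used singly.

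Plin4 and Plin5 encode further perilipins, and their signals went together over livers. Plin4 ran from 3.70 through 4.22 to 6.24, and Plin5, which ties droplets to mitochondria, from 5.49 through 6.77 to 8.93. Animal 91 was highest for both, and animal 87 read 6.15 for Plin4 and 8.38 for Plin5, rank 2 and rank 3 from the top. Their r was 0.782 (rho 0.671), 0.788 without the 4 livers and 0.721 without animal 91. The genes lie next to each other, with 0 protein-coding genes between them in the RefSeq order. Plin2 and Plin5 had r = 0.220 (permutation p = 0.124, adjusted p = 0.248), with rho = 0.343 (permutation adjusted p = 0.0367) and r = 0.328 without animal 87 (permutation adjusted p = 0.0438). Without the 2 livers farthest on Plin2 that r was 0.212, and within stretches it lay between 0.115 and 0.600.

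Animal 91 was the highest of 50 livers for 6 members, Lpin1, Lpin2, Plin2, Plin4, Plin5 and Cd36, a set chosen after its values were seen. Plin5 and Plin4 lay 2.15 and 2.02 above their medians there, Cd36 1.88, Lpin1 1.45, Lpin2 1.18 and Plin2 0.68. In the same liver Fasn, Scd1, Elovl6 and Srebf1 were 0.84, 1.02, 0.89 and 1.05 below their medians. Of the 14 synthesis genes 8 were below their medians and 6 above, namely Acss2 by 0.69, Thrsp by 0.58, Me1 by 0.56, Acacb by 0.51, Fads1 by 0.33 and Fads2 by 0.11. All 7 fasting genes were above their medians there, from G6pc, at 10.95 against 10.91, to Pdk4, at 8.22 against 6.52. Angptl4 was highest of the 50 livers, at 9.22. Lpin1, Lpin2, Plin4 and Plin5 had a mean r of 0.608 over 50 livers and 0.557 without animal 91, whereas all 6 genes had 0.305 and 0.215.

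Pnpla2, the lipase ATGL, stayed within 0.62 for the middle 80% of livers. It ran from 6.19 through 6.71 to 8.49, and that highest signal, in animal 84, stood 1.04 above the next liver. On Fasn its slope was -0.150 ± 0.0561 (limma adjusted p = 0.0323), and on Plin2 -0.339 ± 0.107 (limma adjusted p = 0.0296). Both calls were lost without animal 84, where r with Fasn changed from -0.355 to -0.0940 and with Plin2 from -0.411 to -0.154. Animal 84 also had Fabp1, the liver fatty acid binding protein, at 5.15 against a median of 11.62, and Lpl, the lipoprotein lipase, at 10.05 against 6.49.

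Cidec, which fuses droplets into larger ones, had a median of 3.74, just above the level filter, and ran from 3.31 to 4.75. Animals 301 and 282 were highest and did not differ at 2 decimals. Fitted on Cidec, 7 of 11089 genes (0.0631%) were called higher and 0 (0%) lower, and 0 of the 29 other members were called. At an unadjusted p under 0.05 limma gave 0 members, and 159 genes higher and 393 lower. With Fasn and Plin2 its r was -0.00353 and 0.141 (permutation adjusted p = 0.98 and 0.49; rho -0.0845 and 0.104). Without the 2 livers farthest on Fasn and on Plin2 these were -0.0992 and 0.155, and within stretches -0.553, 0.226, -0.0860 and 0.0115 with Fasn and -0.431, 0.0502, 0.210 and 0.365 with Plin2.

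The 7 genes that rose with Cidec were Des, Pdlim3, Synm, Myh11, Myl9 and Acta2, known from smooth muscle and other contractile cells, and Gsn. Des, which encodes desmin, had r = 0.630 with Cidec (rho 0.493, limma adjusted p = 0.00435), and 0.553 without animal 282, where Des was highest at 8.40. Pdlim3 had r = 0.612 but a rho of 0.267. With arrays centred on their medians 2 genes were called, and with ranks 0. The means of the stellate and fibroblast, the pancreatic acinar and the adipocyte markers moved with Cidec, at r = 0.464, 0.421 and 0.402. The stellate list holds Des itself, 1 of its 6 genes was called on Cidec, and their median r was 0.0338. Acinar markers were high in animals 96 and 149, and the adipocyte markers, Cidea among them, all lay below the level filter. The part of these cells in the relations was not tested. Cidea, a relative of Cidec typical of brown fat, stayed between 2.78 and 3.42, below the level filter.

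Cd36, which takes up fatty acids, ran from 6.85 in animal 179 through 7.96 to 9.84 in animal 91. Unlike the synthesis genes it was high in all 4 livers that stand apart, at 9.73, 8.97, 9.42 and 8.89 in animals 64, 84, 87 and 235. It fell with Fasn over 50 livers, with a slope of -0.288 ± 0.0963 (limma adjusted p = 0.0167), and not over the other 46, with -0.0152 ± 0.138 (limma adjusted p = 0.963). On Plin2 its slope was 0.142 ± 0.202 (limma adjusted p = 0.684) over 50 livers, and over 46 it was the called 0.679. Without animal 64 or animal 87 the call on Fasn was lost. The hepatocyte marker mean had r = -0.416 with Cd36 (-0.124 without the 4 livers), and its part was not tested.

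The animal number is the only per-mouse number in the labels, and no member was called on it. Of 11090 genes 3.29% were called higher and 6.01% lower with animal number, against 0 of 30 members in limma. At an unadjusted p under 0.05, Acaca was higher, by 0.151 ± 0.0720 per 100 numbers, and Plin5 lower, by -0.248 ± 0.106 (limma adjusted p = 0.190 and 0.133). Over 46 livers Mlxipl was called lower, with -0.312 ± 0.0639 (limma adjusted p = 0.000693), beside 8.13% of all genes, and it was called with ranks as well (limma adjusted p = 0.0419). Its medians in the 4 stretches were 9.27, 8.86, 8.66 and 8.41. Those of Fasn were 10.04, 9.89, 10.02 and 9.54, and Fasn was not called.

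Other genes of these pathways were read from 6 further lists, whose counts stand beside 18% of all genes higher and 17.1% lower on Fasn, and 5.74% and 7.26% on Plin2. Among regulators, 8 of 11 tested rose with Fasn. They were Insig1, the sterol-sensing partner of SCAP (0.771 ± 0.0671, limma adjusted p = 2.5e-12), Scap, Srebf2, Nr1h3, Mlx, Rxra, Ppara and Nr0b2. Without the 4 livers Insig1 and Mlx remained. On Plin2, 5 of the 11 rose, and over 46 livers only Ppara did (0.523 ± 0.112, limma adjusted p = 0.00453). Of 8 genes that feed sugar, citrate or NADPH into the pathway 7 rose. They included Slc25a1, the mitochondrial citrate carrier (0.370 ± 0.0389, limma adjusted p = 4.44e-10), Khk, the fructose kinase, and Gckr, and 4 rose without the 4 livers. With Plin2, 2 of the 8 rose, and 0 without the 4 livers. Of 4 other triglyceride synthesis genes, among them Gpat4 and Agpat3, 0 were called on Fasn or on Plin2.

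Of 12 other droplet and lipolysis genes, Bscl2, G0s2 and Mgll rose with Fasn and Hilpda fell, shares of the list near those of all genes, and 0 passed without the 4 livers. On Plin2 the called genes were Fitm1, G0s2 and Mgll, and they were called without the 4 livers too. G0s2, an inhibitor of ATGL, had a slope on Plin2 of 0.948 ± 0.185 over 50 livers and 1.21 ± 0.214 over 46 (limma adjusted p = 0.000912 and 0.000576). Mgll, the monoacylglycerol lipase, had 0.665 ± 0.139 and 0.668 ± 0.149. Of 11 genes of uptake and export 6 rose with Fasn (Fabp1, Fabp2, Slc27a5, Mttp, Apob and Tm6sf2), and Fabp4 and Lpl fell. Without the 4 livers none of those 6 was called, Angptl8 rose with Fasn (0.814 ± 0.199, limma adjusted p = 0.0124) and Lpl fell. On Plin2, Fabp1, Fabp2, Slc27a5 and Angptl4 rose and Fabp4 and Lpl fell over 50 livers. Over 46 livers Fabp1, Slc27a2 and Angptl4 rose with Plin2 and Lpl fell.

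Among fasting genes, over 50 livers 1 of 7, Igfbp1, fell with Fasn, with a slope of -0.589 ± 0.173 (limma adjusted p = 0.00659). Over 46 livers 4 fell with Fasn, beside 0.758% of all genes. They were Pck1 (-0.344 ± 0.0646), G6pc (-0.414 ± 0.117), Igfbp1 (-1.17 ± 0.236) and Ppargc1a (-0.427 ± 0.100). On Plin2, Fgf21 rose over 50 livers (0.912 ± 0.191, limma adjusted p = 0.00156) and was not called over 46 (0.609 ± 0.224, limma adjusted p = 0.137). Over 46 livers Pdk4, which spares glucose in fasting (1.30 ± 0.249), and Cpt1a, which admits fatty acids to mitochondria (0.446 ± 0.123), rose with Plin2. Differences between the slopes on Fasn and on Plin2 were not tested, and feeding state is not given in the labels.

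The genes closest to each anchor outside the members were named by the highest r among the genes above the level filter. For Fasn these were Cyp2c55, Insig1, Sc5d, Slc46a1 and Slc25a1, with r from 0.908 to 0.812. Cyp2c55, a cytochrome P450, was closer to Fasn than any member, with r = 0.908 and rho = 0.908, and its signal ran from 5.03 through 6.19 to 7.39 (slope 0.501 ± 0.0342, limma adjusted p = 4.42e-16). Its r was 0.862 without the 4 livers and at least 0.895 when any single liver was left out. For Plin2 they were Dio1, Gpd2, Mmd, Crot and Elovl3, with r from 0.724 to 0.677. Elovl3, a further elongase, had r = 0.677 with Plin2 and 0.660 without the 4 livers, and Mmd had 0.710 and 0.735.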

How the data were processed

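Total RNA (100 ng) was amplified with the WT Plus kit and hybridised to 1 Affymetrix array per liver, per the labels' protocols. The values are log2 signals deposited by the authors. The submitters' processing notes name RMA and Affymetrix Expression Console 1.4.1. RMA equalises array distributions, so differences in total RNA are lost. Levels of different genes cannot be compared either. Of 41345 probe sets, 23521 carry 1 symbol. Genes were fitted with limma 3.58.1 in R 4.3.3 (lmFit, eBayes with trend) on Fasn, Plin2, Cidec, Fasn with Plin2, or the animal number per 100. The Benjamini-Hochberg adjustment ran over all genes tested. Pairs were tested with 100000 two-sided permutations in Python 3.11.15, adjusted over 12. Each mouse has a number of its own, so livers are separate animals. The 4 stretches are animals 7 to 79, 84 to 128, 137 to 235 and 253 to 301, and come from an earlier look at these data. A gene was split into 2 sets when a mixture of 2 normals gained over 10 in BIC. The means of the normals had to lie at least 4 SD and 0.5 log2 apart, with 5 livers in the smaller set. All steps were tested on simulated data. Members, lists, pairs and stretches were chosen with earlier results of these data known. The text names the members, the 5 genes closest to each anchor, and genes of the pathway and marker lists; Acta2 and Gsn were named after their values were seen. Alternatives covered probe sets, centring, ranks, the level filter, the variance prior, stretches and single livers. No sequences were used here.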

Additional observations from a re-analysis of the deposited data

How the results depend on the processing

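Leaving out animals 64, 84, 87 and 235 moved 10 of 24 results. The r of Fasn with Plin2 was then 0.162, the mean r 0.504 in the synthesis arm, 0.104 in the storage arm and 0.108 between arms, the r of the arm scores 0.357 and the median SD 0.456. Called members numbered 15 on Fasn, 4 on Plin2, 1 on animal number and 4 on Plin2 at equal Fasn. With ranks, the r of Fasn with Plin2 was 0.269, that of Plin2 with Plin5 0.343 and the synthesis mean 0.595; 4 members were called on Plin2, 1 on animal number and 0 on Plin2 at equal Fasn. When single livers were left out, an alternative chosen after seeing the data, called members ranged from 4 to 19 on Plin2 and from 0 to 5 on Plin2 at equal Fasn. The r of Fasn with Plin2 ranged from 0.309 to 0.487 and that of Plin2 with Plin5 from 0.134 to 0.328, over 6 such livers. On Fasn the count stayed between 21 and 24. Probe set means, centred arrays and stretches as a block kept the pairs, arm means and counts of members on their side of the threshold or within 1.5 times, although the uncalled r of Fasn with Cidec was 0.0215 with arrays centred. All named genes and no variance trend were run for the counts of members alone, and kept them within 1.5 times. No paired analysis was possible because all livers form 1 group. Signals near 3.61, such as Cidec, limit what can be seen.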
